A study of Mus musculus with 8 samples.

Results

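Accessible chromatin at 3 genes of the mast cell and eosinophil lineages, Mitf, Il5ra and Cpa3, was examined in 2 subpopulations of mouse MPP2 cells. The 3 genes were chosen with earlier results of these data known, but their peaks were taken by position alone. They are all peaks of the deposited table that overlap chromosome 6 from 97750000 to 97980000 (Mitf), chromosome 6 from 106655000 to 106710000 (Il5ra) or chromosome 3 from 20105000 to 20155000 (Cpa3), in build mm9. These windows held 26, 4 and 7 peaks, 37 of the 134473 peaks in all. Peaks are numbered within each locus in the order of their mm9 positions.

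MPP2 cells are blood progenitors with several lineage options. They came from bone marrow of C57BL/6 adults, 8 to 12 weeks old, and were sorted as LSK cells (lineage-negative, Sca1-positive and Kit-positive) without Flt3 and with CD150 and CD48. All cells were also sorted as positive for Gata1, so both groups share that gate. One group was Vwf+Gata1+ and the other Vwf-Gata1+, with 4 libraries of 500 cells in each. Peaks at Vwf and Gata1 themselves were not placed here, so the gates were not checked against these genes. The labels do not say how Vwf and Gata1 were detected or whether each library is a separate animal, so a p-value reflects only how these libraries vary, which may be technical. Chromatin was probed by Omni-ATAC-seq, in which the Tn5 transposase cuts and tags open DNA. The assay measures accessibility, not RNA, so no value here is an expression level.

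Mitf encodes a basic helix-loop-helix leucine zipper transcription factor that binds E-box sequences and is needed for mast cells and melanocytes. It is transcribed from several alternative first exons. Il5ra encodes the alpha chain of the interleukin-5 receptor, which pairs with the common beta chain and supports the growth and survival of eosinophils. Cpa3 encodes carboxypeptidase A3, a protease stored in mast cell granules and also transcribed in early progenitors that can give rise to mast cells and basophils. GATA factors, of which Gata1 and Gata2 are the main ones in these lineages, bind DNA at short motifs with the core GATA and take part in the control of mast cell and eosinophil genes.

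RefSeq sequences upstream of the annotated transcription starts are shown because both sorted groups share a Gata1 gate, and the capitals mark each match to GATAA on either strand (TTATC on the strand printed). Each is the 250 bases before a start, 5′ to 3′ on the strand of the gene, in build GRCm38.p6, which is not the build of the peaks. The Mitf stretch is chr6:97806808-97807057 on the plus strand, the most upstream of 3 Mitf starts in the table. The Il5ra stretch is chr6:106749038-106749287 and the Cpa3 stretch is chr3:20242182-20242431, both on the minus strand.
Mitf, most upstream start: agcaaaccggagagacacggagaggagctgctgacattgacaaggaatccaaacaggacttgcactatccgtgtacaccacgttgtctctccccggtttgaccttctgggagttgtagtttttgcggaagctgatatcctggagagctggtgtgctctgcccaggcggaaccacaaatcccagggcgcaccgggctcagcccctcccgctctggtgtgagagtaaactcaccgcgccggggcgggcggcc
Il5ra: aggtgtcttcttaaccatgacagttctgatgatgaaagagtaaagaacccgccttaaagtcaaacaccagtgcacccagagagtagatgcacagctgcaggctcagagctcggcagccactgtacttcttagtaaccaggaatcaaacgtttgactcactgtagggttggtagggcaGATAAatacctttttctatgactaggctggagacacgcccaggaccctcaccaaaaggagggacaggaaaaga
Cpa3: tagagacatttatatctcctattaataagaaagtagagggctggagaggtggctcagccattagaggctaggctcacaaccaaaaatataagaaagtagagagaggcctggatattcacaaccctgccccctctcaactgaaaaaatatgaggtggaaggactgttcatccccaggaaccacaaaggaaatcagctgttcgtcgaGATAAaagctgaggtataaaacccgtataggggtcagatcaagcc
The Il5ra stretch held 1 match to GATAA, beginning 73 bases before the start, and the Cpa3 stretch held 1, beginning 45 bases before the start. The most upstream Mitf stretch held 0, and those of the other two Mitf starts held 1 each. A match was present in 22.6% of 32851 such stretches of all genes in the table. The general E-box CANNTG, the motif class that Mitf binds, had 1 match in the Il5ra stretch, 2 in the Cpa3 stretch, and 0, 1 and 0 at the 3 Mitf starts from the most upstream on, against 66.2% of all stretches with at least 1. The more specific E-boxes CATGTG and CACGTG had 0 matches in any of the 5 stretches of these genes, against 12.3% and 6.02% of all stretches. CATGTG and CACGTG are themselves forms of CANNTG. Such matches describe letters in a window and do not show binding. Coordinates were not converted between builds, so the peaks below were not placed on these stretches.

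Total counts in peaks ran from 4628997 to 7753538 per library. Counts were tested at the 97040 peaks that passed a filter on low counts, which included 18 of the 37 peaks here: 12 of 26 at Mitf, 2 of 4 at Il5ra and 4 of 7 at Cpa3. Signal is given as CPM (counts scaled to a common library depth), by which peaks are ranked unless stated. In places it is also given as CPM per kb of peak width. No label names a batch.

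None of the 18 tested peaks passed an adjusted p of 0.05 for a difference between the groups (edgeR, quasi-likelihood test), a threshold that 14 of all tested peaks passed (0.0144%). At an unadjusted p under 0.05 the count was also 0 of 18, against 6.72% of all tested peaks. The groups overlapped at all 18, against 3.88% of all tested peaks at which they did not. DESeq2 and limma-voom called 0 of the 18 as well. At that unadjusted threshold limma-voom had 1 peak, at Mitf, and DESeq2 had 0. With background shares this small, 0 calls among 18 peaks does not set these loci apart from the rest of the genome.

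At Mitf, 1 strong peak stood at the upstream end of the gene and was followed by weaker peaks across the gene, of which 7 were above the median CPM of all peaks. Mitf peak 2 (chromosome 6, 97756610 to 97757729, 1120 bp) contains the gene start near 97757100 that the locus definition gives. Its signal was 36.5, 43.3, 43.5 and 40.1 CPM in replicates 1 to 4 of Vwf+Gata1+ cells and 34.9, 39.2, 43.7 and 35.8 CPM in replicates 1 to 4 of Vwf-Gata1+ cells. The groups overlapped, and the lowest library of each group was its replicate 1. The means were 40.9 ± 3.32 and 38.4 ± 3.99 CPM (SD, n = 4 each), a log2 difference of 0.09 with an SE of 0.10 (log2 fold change, Vwf+Gata1+ minus Vwf-Gata1+, as throughout; edgeR adjusted p = 0.919). The 95% interval of that change ran from -0.11 to 0.28 on the log2 scale, so a 2-fold difference in either direction lay outside it. Of all 134473 peaks, this one was at percentile 95.9 by mean CPM and 96.4 by CPM per kb (35.4 CPM per kb).

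The next strongest Mitf peaks by mean CPM lay within the gene extent. By CPM per kb, Mitf peak 3 came next after peak 2, at 11.6. Mitf peak 12 (97826487 to 97827803) was centred 69.98 kb from the centre of peak 2 and was the widest of the locus at 1317 bp. It had 6.58, 8.44, 9.4 and 7.91 CPM in the Vwf+Gata1+ libraries and 7.45, 12.1, 11.1 and 10.1 CPM in the Vwf-Gata1+ libraries. In Vwf-Gata1+ cells 3 libraries were above every library of the other group, while replicate 1 was within its range. The means were 8.08 ± 1.17 and 10.2 ± 2.02 CPM (SD, n = 4 each), a log2 difference of -0.34 with an SE of 0.18 (edgeR adjusted p = 0.757). This was the lowest unadjusted p of the locus, 0.0584 in edgeR, and its 95% interval ran from -0.70 to 0.01. Some other settings put that unadjusted p under 0.05. It was 0.0458 by total count and 0.0357 with the replicate block (both edgeR), and 0.0416 in limma-voom. In edgeR it stayed above 0.05 with RLE scaling (0.0611), without the filter (0.0650) and with a CPM minimum of 1 in 4 libraries (0.0594). It was also above 0.05 in DESeq2 (0.104). With 1 library left out the unadjusted p in edgeR ran from 0.0100 (Vwf-Gata1+ replicate 1) to 0.211 (Vwf-Gata1+ replicate 2). It was 0.0313 when Vwf+Gata1+ replicate 3 was left out and 0.0472 when both libraries numbered 1 were. The adjusted p (edgeR, limma-voom or DESeq2) was at least 0.44 in all of these fits.

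Mitf peak 14 (97837716 to 97838523) lay further along the gene, centred 80.95 kb from peak 2. It had 6.85, 9.57, 7.79 and 9.49 CPM in the Vwf+Gata1+ libraries and 6.4, 8.76, 8.97 and 9.34 CPM in the Vwf-Gata1+ libraries. The groups covered nearly the same range, with means of 8.43 ± 1.33 and 8.37 ± 1.33 CPM and a log2 difference of 0.02 with an SE of 0.18 (edgeR adjusted p = 0.995). Per kb it was stronger than peak 12, at 10.4 against 6.94 CPM per kb, which put the 2 peaks at percentiles 69 and 51.6 of all peaks on that scale.

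Mitf peak 26 (97955606 to 97955823), the peak nearest the downstream end of the gene extent near 97971400, was weak and was left out of the test by the filter. It had 0.79, 1.13, 0.917 and 1.15 CPM in Vwf+Gata1+ cells, from 4 to 8 counts per library, and 1.18, 1.23, 1.76 and 2.48 CPM in the Vwf-Gata1+ libraries, from 8 to 17 counts. The groups did not overlap, although the highest Vwf+Gata1+ library and the lowest Vwf-Gata1+ library nearly met (2-sided exact permutation p = 0.0286, the smallest that 4 libraries against 4 allow). Groups failed to overlap in this direction at 2.08% of all 134473 peaks. In edgeR without the filter its log2 difference was -0.72 with an SE of 0.40 (adjusted p = 0.819 over all peaks).

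The other 22 Mitf peaks were between 200 and 938 bp wide and had mean signals from 0.565 to 5.47 CPM, and the groups overlapped at all 22. Of these, 9 were tested, with log2 fold changes from -0.34 to 0.39, 5 below 0 and 4 above, and a lowest edgeR adjusted p of 0.84. Peaks up to 250 bp wide made up 12 of the 26 at the locus, of which 1 was tested, while 11 of the 14 wider ones were. All 12 tested Mitf peaks divided into 6 with a log2 fold change above 0 and 6 below, with a median of -0.01, where all tested peaks had a median of 0.00 and 49.3% below 0. In 10 of the 12 the 95% interval lay within 2-fold in either direction.

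**Figure D1:**
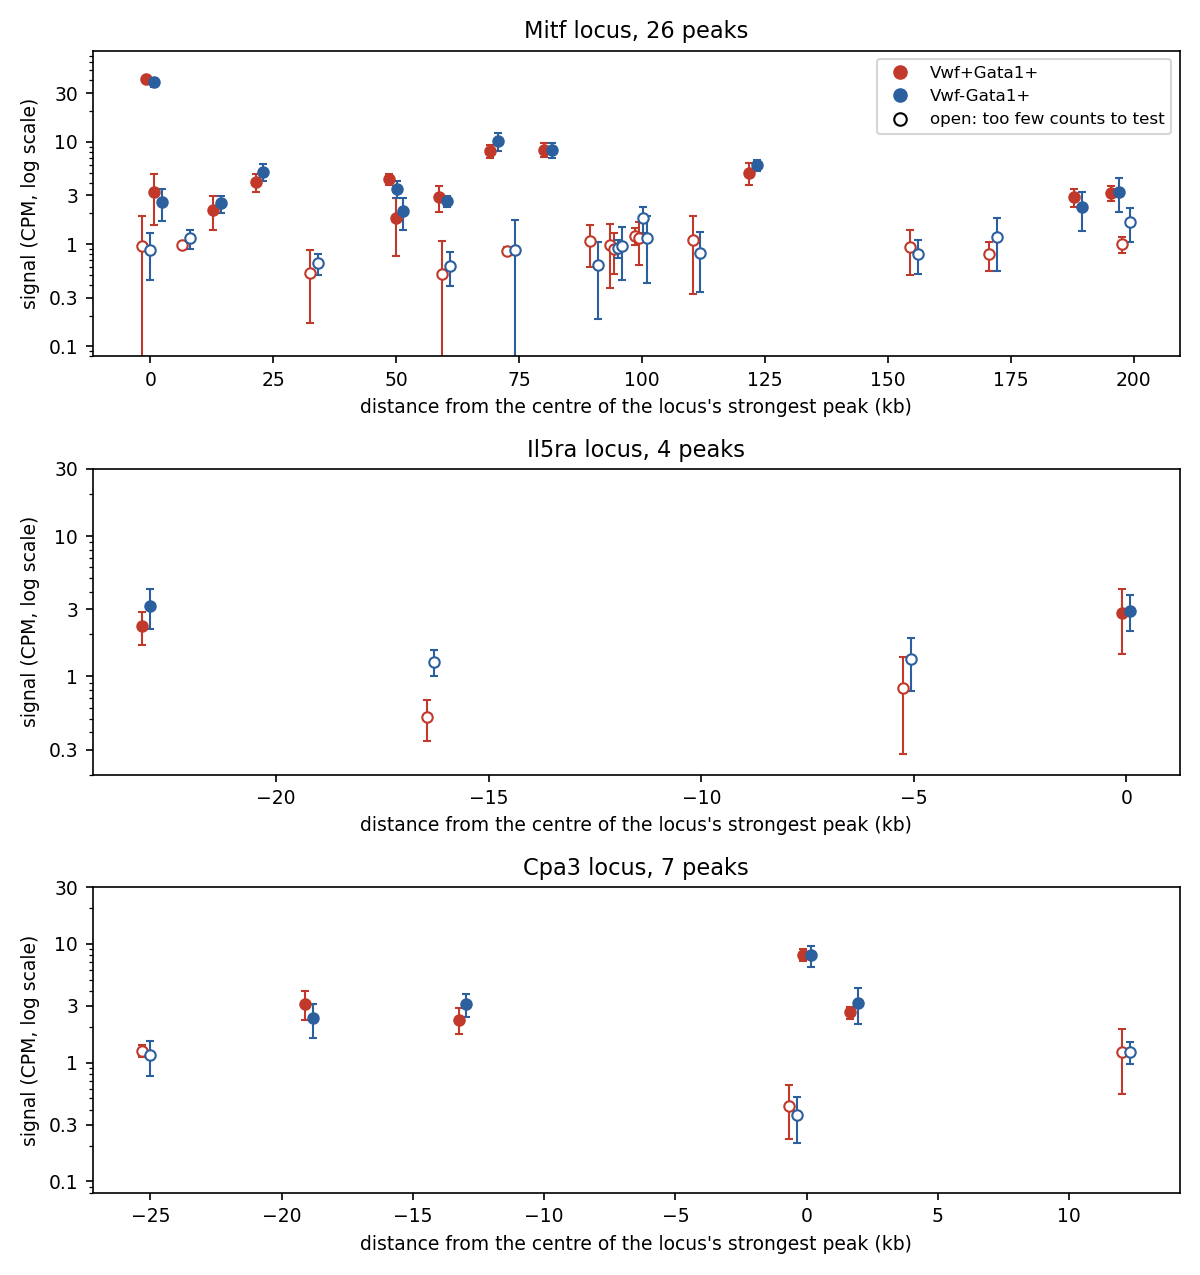
Mean signal of every peak at the Mitf, Il5ra and Cpa3 loci in CPM on a log axis, against distance in kb from the centre of the strongest peak of the locus, drawn toward higher chromosome positions to the right. Points are means of 4 libraries with SD, filled where the peak was tested and open where counts were too few (bars that reach the lower edge are cut there). At Mitf the peak at 0 kb, at 40.9 and 38.4 CPM, stands above peaks that reach at most 10.2 CPM.

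Il5ra had the least signal of the 3 loci, and its 4 peaks lay between 106675637 and 106699325 of chromosome 6. The 2 tested peaks had log2 fold changes of -0.46 and -0.01, and neither passed the test. Il5ra peak 1 (106675637 to 106676406, 770 bp) had 3.03, 2.06, 1.6 and 2.44 CPM in the Vwf+Gata1+ libraries and 4.7, 2.77, 2.54 and 2.77 CPM in the Vwf-Gata1+ libraries. Replicate 1 was the highest library in both groups, and the groups overlapped through replicate 1 of Vwf+Gata1+ cells. The means were 2.29 ± 0.603 and 3.2 ± 1.01 CPM (SD, n = 4 each), a log2 difference of -0.46 with an SE of 0.29 (edgeR adjusted p = 0.818). Its 95% interval ran from -1.04 to 0.12. With 1 library left out, the log2 difference was smallest without replicate 1 of Vwf-Gata1+ cells, at -0.19 (edgeR adjusted p = 0.968). It was largest without replicate 1 of Vwf+Gata1+ cells, at -0.64 (edgeR adjusted p = 0.640).

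Il5ra peak 4 (106698831 to 106699325, 495 bp) had the highest mean CPM of the locus over all 8 libraries, at 2.88 against 2.74 for peak 1. It had 2.9, 4.13, 0.917 and 3.31 CPM in the Vwf+Gata1+ libraries and 1.96, 4, 2.73 and 3.06 CPM in the Vwf-Gata1+ libraries. Replicate 3 of Vwf+Gata1+ cells, the shallowest library, had 4 counts there and was the lowest of the 8. The log2 difference was -0.01 with an SE of 0.31 (edgeR adjusted p = 0.998), with a 95% interval from -0.63 to 0.61. The sign was not stable: without that library the log2 difference was 0.22 (edgeR adjusted p = 0.963).

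Il5ra peaks 2 and 3 had too few counts for the filter. Il5ra peak 2 (106682576 to 106682831, 256 bp) had 0.527, 0.563, 0.688 and 0.288 CPM in Vwf+Gata1+ cells, from 2 to 4 counts per library, and 1.44, 1.08, 1.56 and 1.02 CPM in the Vwf-Gata1+ libraries, from 7 to 11 counts. All 4 Vwf-Gata1+ libraries were above all 4 Vwf+Gata1+ libraries, with means of 1.27 ± 0.265 and 0.516 ± 0.167 CPM, a ratio of 2.47 (2-sided exact permutation p = 0.0286, the smallest possible). In edgeR without the filter, the log2 difference was -1.30 with an SE of 0.48 (unadjusted p = 0.00937), and the adjusted p was 0.607 over all peaks. Without the filter, 2.99% of all peaks had an unadjusted p under 0.05 with lower signal in Vwf+Gata1+ cells, and 2.08% had groups that did not overlap in that direction. Il5ra peak 3 (106693750 to 106694058, 309 bp) had 0.263, 1.31, 0.458 and 1.29 CPM in the Vwf+Gata1+ libraries and 1.05, 2.15, 0.975 and 1.17 CPM in the Vwf-Gata1+ libraries. The groups overlapped (2-sided exact permutation p = 0.286). In edgeR without the filter its log2 difference was -0.67 with an SE of 0.46 (adjusted p = 0.869).

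Cpa3 also had 1 peak well above its neighbours, and the groups had nearly equal signal there. Cpa3 peak 5 (chromosome 3, 20141930 to 20142541, 612 bp) had 7.37, 9.38, 7.56 and 8.05 CPM in the Vwf+Gata1+ libraries and 6.4, 8.3, 10.1 and 7.3 CPM in the Vwf-Gata1+ libraries. The lowest and the highest of the 8 libraries were both Vwf-Gata1+, so the groups overlapped. The means were 8.09 ± 0.906 and 8.04 ± 1.6 CPM (SD, n = 4 each), a log2 difference of 0.03 with an SE of 0.18 (edgeR adjusted p = 0.992), with a 95% interval from -0.34 to 0.39. By CPM per kb it was at percentile 77 of all peaks, at 13.2 CPM per kb. Whether it covers the Cpa3 promoter was not examined here, since no mm9 annotation was used.

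Cpa3 peak 6 (20143852 to 20144223) was centred 1.8 kb from peak 5. It had 2.24, 3, 2.75 and 2.59 CPM in the Vwf+Gata1+ libraries and 2.74, 4.15, 3.9 and 1.9 CPM in the Vwf-Gata1+ libraries. The Vwf+Gata1+ libraries lay close together inside the wider range of the other group, and the log2 difference was -0.26 with an SE of 0.28 (edgeR adjusted p = 0.923). Leaving out Vwf-Gata1+ replicate 2, 3 or 4 or Vwf+Gata1+ replicate 1 gave -0.09, -0.15, -0.44 or -0.17. Cpa3 peak 2 (20122920 to 20123620), on the other side of peak 5, had 2.77, 3, 4.35 and 2.44 CPM against 2.35, 3.38, 1.56 and 2.19 CPM in the same order. Replicate 3 was the highest library of Vwf+Gata1+ cells and the lowest of Vwf-Gata1+ cells, and the log2 difference was 0.34 with an SE of 0.29 (edgeR adjusted p = 0.886). Leaving out Vwf+Gata1+ replicate 3, Vwf-Gata1+ replicate 3 or Vwf-Gata1+ replicate 2 gave 0.18, 0.22 or 0.55.

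The remaining 4 Cpa3 peaks had mean signals from 0.398 to 2.70 CPM, and the groups overlapped at all 4. One of them was tested: Cpa3 peak 3 (20128942 to 20129312), which is named after its values were seen because it had the lowest unadjusted p of the locus, 0.0984 in edgeR. Its means were 2.31 ± 0.571 CPM in the Vwf+Gata1+ libraries and 3.1 ± 0.69 CPM in the Vwf-Gata1+ libraries, a log2 difference of -0.48 with an SE of 0.29 (edgeR adjusted p = 0.806). All 4 tested Cpa3 peaks divided into 2 above 0 and 2 below, with a median log2 fold change of -0.11.

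**Figure D2:**
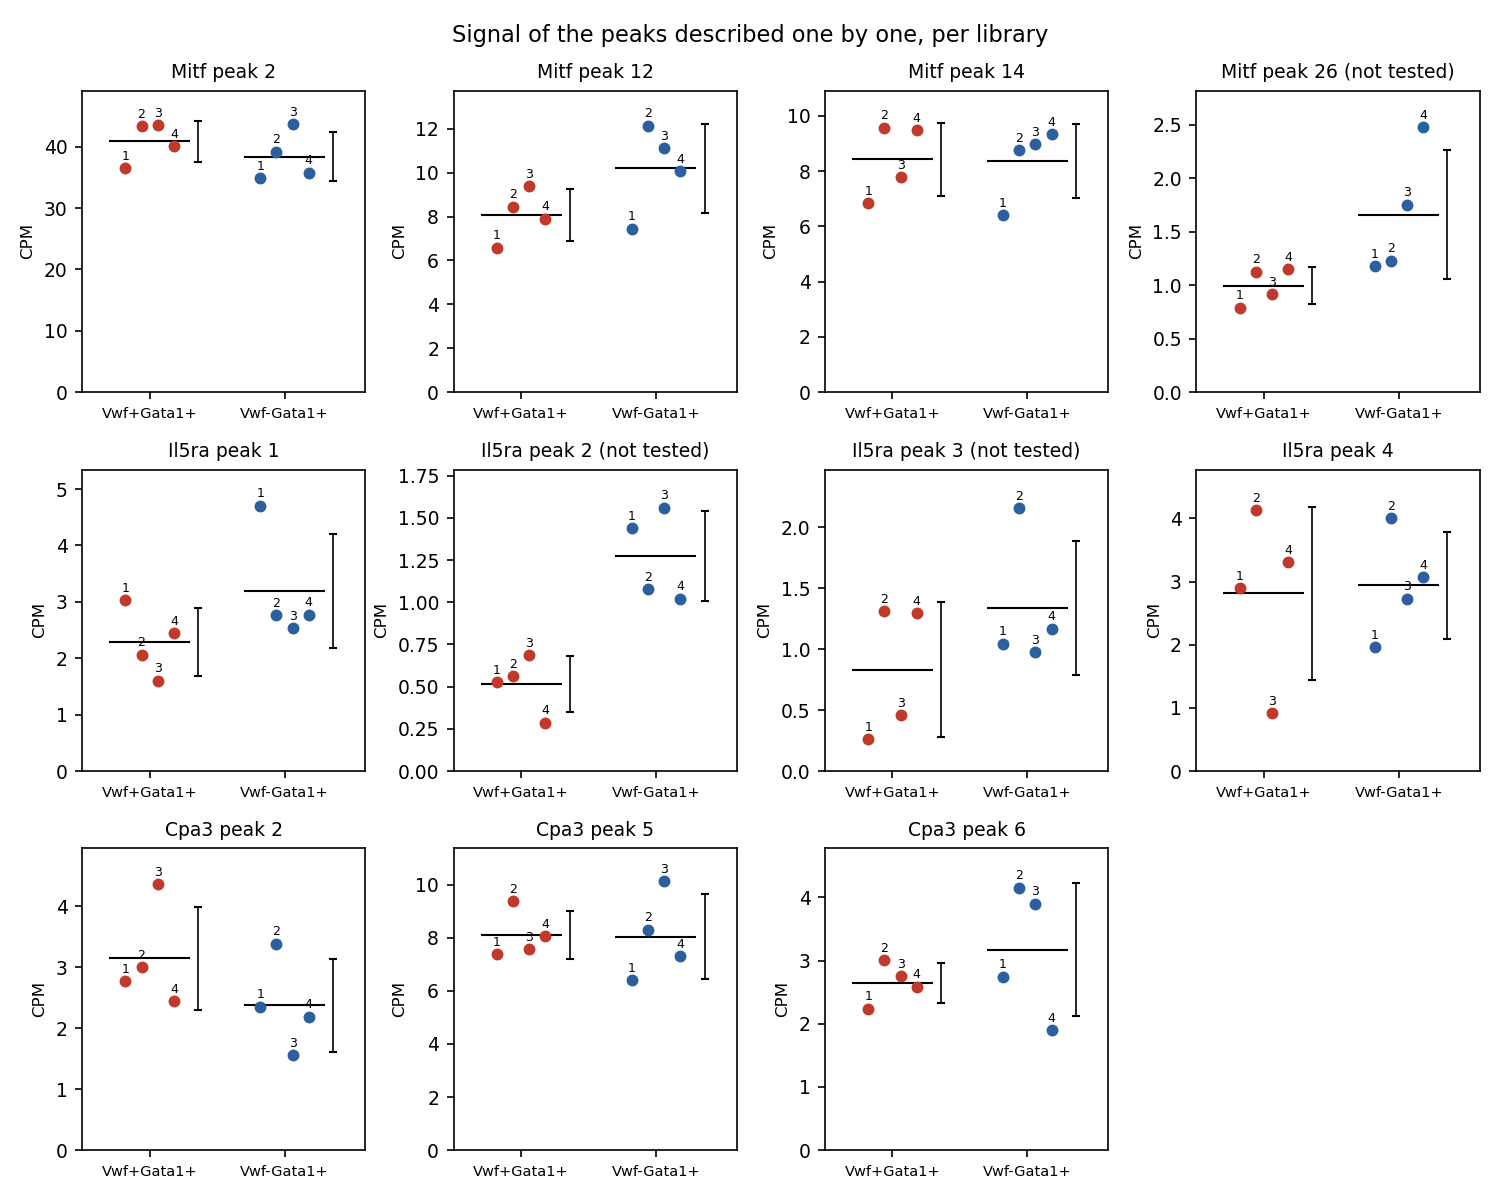
Signal in CPM of the 11 peaks described one by one, each point a library labelled with its replicate number, lines the means and bars the SD of 4 libraries. The groups overlap in 9 of the 11 panels. The exceptions are Mitf peak 26 and Il5ra peak 2, both too weak for the filter.

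**Figure D3:**
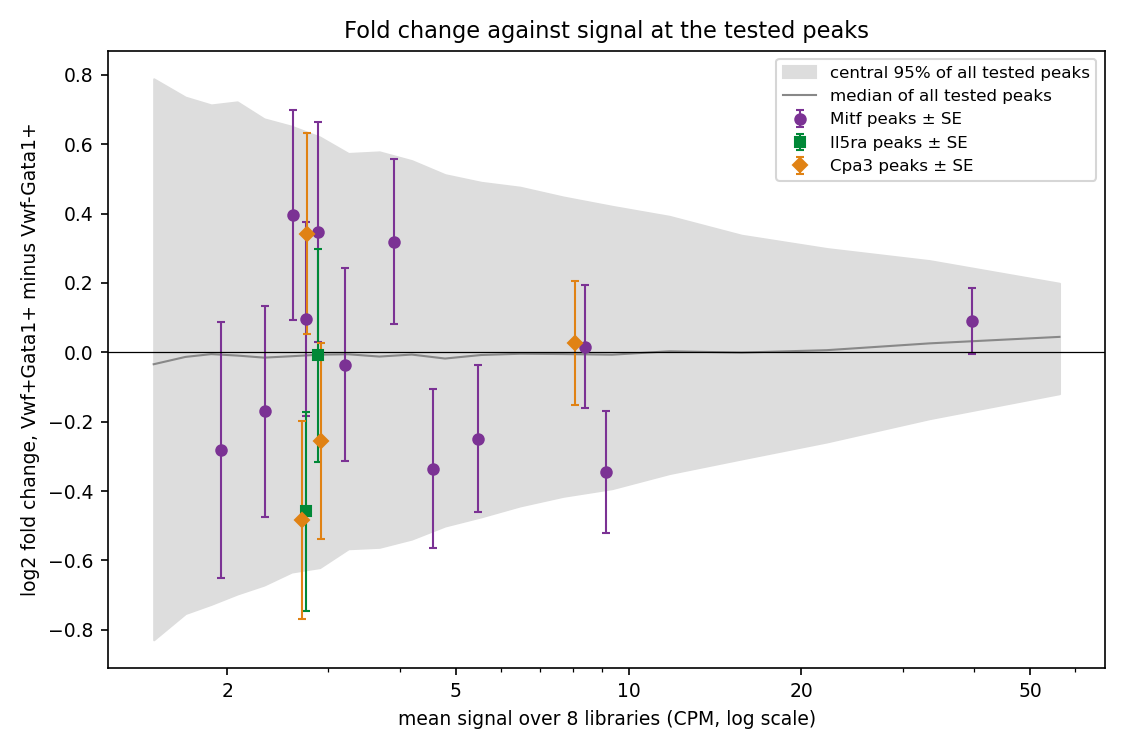
Log2 fold change of the 18 tested peaks with SE, Vwf+Gata1+ minus Vwf-Gata1+, against mean CPM on a log axis. The band holds the central 95% of all 97040 tested peaks in 20 classes of signal, and the 18 peaks lie inside it.

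The loci were also compared as wholes by summing CPM over all peaks of each window, as a description without a test. Mitf summed to 93.8, 106.4, 104.7 and 94.6 CPM in the Vwf+Gata1+ libraries and to 89.5, 106.6, 112.5 and 94.9 CPM in the Vwf-Gata1+ libraries. Those are means of 99.9 ± 6.62 and 100.9 ± 10.5 CPM (SD, n = 4 each), a log2 ratio of -0.01. In both groups replicates 2 and 3 were above replicates 1 and 4. Cpa3 summed to 17.4, 21.8, 19.02 and 18.3 CPM against 17.4, 21.8, 21.3 and 17.2 CPM in the same order, a log2 ratio of -0.02. Again the libraries differed more within a group than the group means did.

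Il5ra summed to 6.72, 8.07, 3.67 and 7.33 CPM in the Vwf+Gata1+ libraries and to 9.15, 9.99, 7.8 and 8.03 CPM in the Vwf-Gata1+ libraries. The means were 6.45 ± 1.93 and 8.74 ± 1.02 CPM (SD, n = 4 each), a log2 ratio of -0.44, and the groups overlapped. Without replicate 3 of Vwf+Gata1+ cells the log2 ratio was -0.25. All 4 peaks had the lower mean in Vwf+Gata1+ cells. Among all tested peaks of the genome, 49.3% had a log2 fold change below 0. With Il5ra peak 4, the strongest by mean over all 8 libraries, left out of the sum, the groups did not overlap. They ran from 2.75 to 4.03 CPM against 4.96 to 7.19 CPM, a log2 ratio of -0.68. The peak left out of the sum had a log2 difference of -0.01. Of the peaks kept, Il5ra peaks 2 and 3 had too few counts for the filter. The sum also holds 2 Vwf-Gata1+ values flagged below as far from their group, 4.70 CPM at Il5ra peak 1 and 2.15 CPM at Il5ra peak 3. At Mitf and Cpa3 the groups overlapped with the strongest peak left out. How often such sums separate over the genome was not computed, so this separation is a description only. The Il5ra total rests on 4 weak peaks, so a few counts move it.

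**Figure D4:**
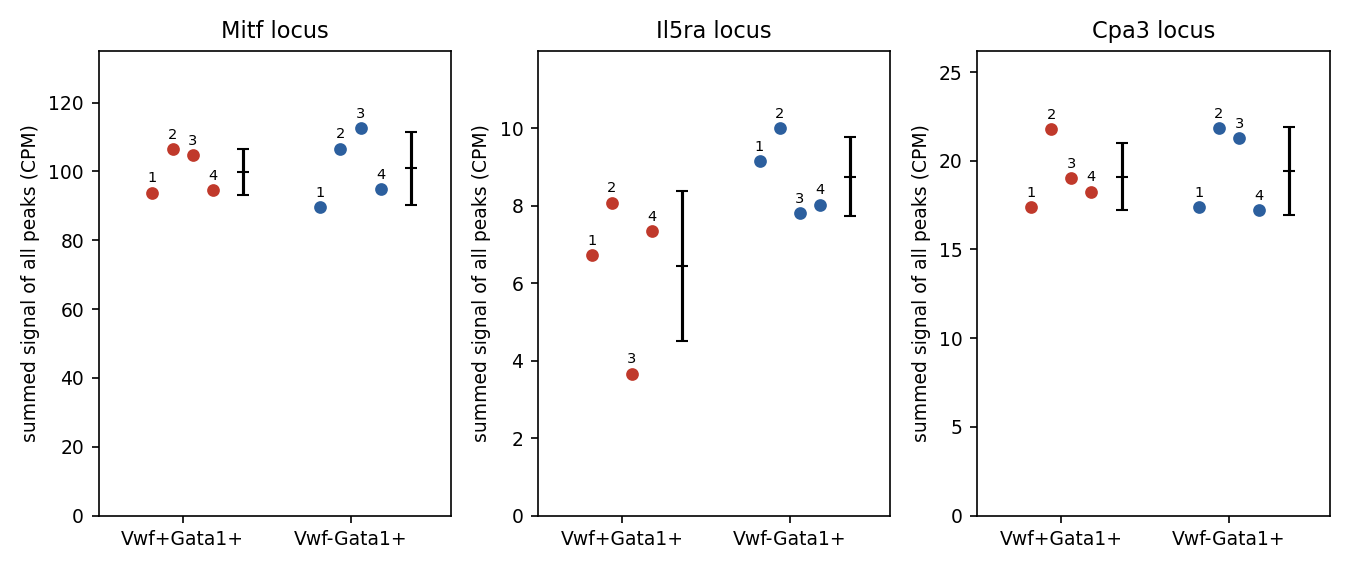
Summed CPM of all peaks of each locus, each point a library labelled with its replicate number, bars the mean and SD of 4 libraries. The groups overlap at all 3 loci, and at Il5ra replicate 3 of Vwf+Gata1+ cells lies lowest at 3.67 CPM.

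The share of the locus signal held by its strongest peak, by mean CPM over all 8 libraries, was also described. Mitf peak 2 held 40.9% ± 1.5 of the locus signal in the Vwf+Gata1+ libraries and 38.1% ± 1.03 in Vwf-Gata1+ cells, and Cpa3 peak 5 held 42.3% ± 1.86 and 41.2% ± 4.92 (SD, n = 4 each). Il5ra peak 4 held 41.1% ± 11.3 and 33.7% ± 8.41, but it was not dominant. In Vwf-Gata1+ cells Il5ra peak 1 had the higher mean, at 3.20 against 2.94 CPM. The Mitf ranges met narrowly, at 38.9% to 42.4% and 36.8% to 39.0%.

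Peaks were denser at the 3 loci than over the genome but were mostly below the median signal of all peaks. There were 11.3 peaks per 100 kb at Mitf, 7.27 at Il5ra and 14.0 at Cpa3, against 5.09 over all chromosomes up to their last peak. Windows at other genes were not compared. Median widths were 320.5, 402 and 371 bp, against 393 bp for all peaks. Median signal per peak was 4.84 CPM per kb at Mitf, 3.53 at Il5ra and 4.52 at Cpa3, below the 6.73 CPM per kb of all peaks. On that scale 7 of 26 Mitf peaks, 0 of 4 Il5ra peaks and 3 of 7 Cpa3 peaks were above the median of all peaks.

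Outside the windows, the nearest peaks lay 7.59 kb below and 59.4 kb above the Mitf window, 40.9 kb below and 0.92 kb above the Il5ra window and 5.67 kb below and 37 kb above the Cpa3 window, with mean signals from 0.630 to 3.94 CPM. By gene order in GRCm38.p6, the neighbouring protein-coding genes are Frmd4b and Gm765 at Mitf, Cntn4 and Trnt1 at Il5ra and Gyg and Cpb1 at Cpa3.

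Among the 44577 other tested peaks with a mean of at least 5 CPM, those whose log2 signal followed a locus total most closely over the 8 libraries were taken as a description. For Mitf these were a peak of chromosome 7 (87438786 to 87440127, Pearson r = 0.994) and one of chromosome 5 (86601022 to 86602600, r = 0.986). For Il5ra they were on chromosome 10 (16920627 to 16921463, r = 0.986) and chromosome 9 (123566175 to 123566976, r = 0.980). For Cpa3 both were on chromosome 6 (136466983 to 136468091, r = 0.981, and 86782714 to 86783541, r = 0.976). All points share the same 8 libraries with their depth and scaling, and a highest r among so many peaks is high by selection.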

How the data were processed

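The deposited data are 1 table of unnormalized counts for 134473 peaks in 8 libraries, and every column was used. The submitters' processing notes name build mm9 and MACS2, Picard, SAMtools, Bowtie2, FastQC and Trim Galore. Versions, duplicate handling, any shift of cut sites, peak merging and the unit counted (reads or fragments) are not given in the sources used here. Leaving cut sites unshifted moves them by a few bases, little against a median peak width of 393 bp. Groups came from the cell type label and replicate numbers from titles. Replicates differed by more than sampling noise (chi-square per degree of freedom 1.29 to 1.94 within groups) and were each counted.

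Peaks were filtered with edgeR's filterByExpr (minimum count 10, minimum total 15), scaled by TMM and tested over the whole table by edgeR's robust quasi-likelihood fit, adjusted by Benjamini-Hochberg over 97040 peaks (72.2%). The SE was derived from the fold change and its F statistic. A 2-sided exact permutation test of CPM was run for each of the 37 peaks, unadjusted, and is printed for peaks that the filter left out. Software was Python 3.11.15 with scipy 1.17.1 and matplotlib 3.10.9, and DESeq2 1.42.0, limma 3.58.1 and edgeR 4.0.16 under R 4.3.3.

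The loci, lists and alternatives were chosen with earlier results of these data known. Peaks described one by one are, at each locus, the 3 with the highest mean CPM, up to 3 more at an unadjusted p under 0.05 (there were 0), the peaks nearest the Mitf gene ends, and all peaks where a locus had 6 or fewer. Other mast cell and eosinophil genes and marker genes of other lineages, listed for use with an mm9 annotation, were not analysed here.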

Additional observations from a re-analysis of the deposited data

Results flagged for a closer look

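Among the 11 peaks described one by one and the 3 locus totals, 28 groups of 4 libraries were examined for a library far from its group by Dixon's test at the 95% level. Chance marks about 1 group in 20, and 2 groups were marked. At Il5ra peak 1, replicate 1 of Vwf-Gata1+ cells had 4.70 CPM, while the other libraries of that group had 2.54 to 2.77 CPM. At Il5ra peak 3, replicate 2 of Vwf-Gata1+ cells had 2.15 CPM, while the others had 0.975 to 1.17 CPM. That library had 14 counts at the peak.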

How the results depend on the processing

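The count of called peaks was 0 at each of the 3 loci in the main fit and under every alternative run: RLE and total count scaling, no filter, limma-voom with quality weights, DESeq2, a CPM minimum of 1 in 4 libraries, an adjusted p under 0.1, an unadjusted p under 0.05, each library left out in turn and, chosen after seeing the data, both libraries numbered 1 left out. With the replicate number as a block it was also 0, where that fit called 511 of all tested peaks (0.527%). The main fit, without the block, called 14. The unadjusted threshold was applied here to the main fit only. At that threshold 1 Mitf peak, peak 12, passed with the block, by total count and in limma-voom. It also passed without Vwf+Gata1+ replicate 3, without Vwf-Gata1+ replicate 1 and without both libraries numbered 1 (edgeR). At Il5ra 1 peak, peak 2, passed in edgeR with no filter. Deviations of same-numbered libraries correlated at 0.301, 0.163, 0.074 and 0.0103, all positive. These values do not settle whether the numbers pair the samples, and the labels do not say. The fit on group alone was kept as the main one, so its SEs, intervals and p-values take no account of any pairing. Under the block Mitf peak 12 had -0.33 as its log2 value (edgeR adjusted p = 0.44). Of the 8 libraries, 5 had their best match at the same number, which is a hint only.

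Of 130 log2 fold changes of the described peaks under alternatives, 119 kept their direction and 11 changed sign; none of the 130 was called. Mitf peak 14 was -0.0029 by total count and -0.045, -0.057 and -0.10 without Vwf+Gata1+ replicates 2 and 4 and Vwf-Gata1+ replicate 1, within a range of -0.10 to 0.12 over single libraries left out. Il5ra peak 4 was 0.22, 0.18 and 0.013 without Vwf+Gata1+ replicate 3 and Vwf-Gata1+ replicates 2 and 4, within a range of -0.20 to 0.22. Cpa3 peak 5 was -0.045, -0.072 and -0.016 without Vwf+Gata1+ replicate 2 and Vwf-Gata1+ replicates 1 and 4, within a range of -0.072 to 0.15, and -0.024 without both libraries numbered 1. These 3 peaks had log2 fold changes near 0 with all libraries. Leaving out 1 library gave log2 ratios of the locus sums from -0.065 to 0.045 at Mitf, -0.56 to -0.25 at Il5ra and -0.090 to 0.037 at Cpa3. The 19 untested peaks had at most 18 counts in any library.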
